A study of Caenorhabditis elegans with 58 samples.

Results

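The comparison set an ebax-1 null strain against wild type in the nematode Caenorhabditis elegans, with 4 stages of development pooled. By titles and genotype labels, 8 libraries came from ebax-1(null) animals, which are the strain CZ9907 with the allele ebax-1(tm2321), and 8 from the wild-type strain N2. They are 16 of the 58 libraries of the series. Each genotype had 2 libraries at each of 4 stages, which were the 2-8 cell embryo, the comma embryo, the pretzel embryo and the starved first larval stage (L1). All libraries were small RNA from whole hermaphrodites, and the labels name no other allele or agent in either genotype. The null strain is 1 line with 1 allele, so the allele and the strain's background cannot be told apart. The labels do not say how embryos of each stage were collected, and miRNA counts cannot check the ebax-1 genotype itself.

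MicroRNAs (miRNAs) are short RNAs that guide Argonaute proteins to matching messages. One strand of the hairpin, the guide, is loaded and kept, and the opposite strand is the passenger. EBAX-1 recognises substrates for a cullin-RING ubiquitin ligase, and its mammalian relative ZSWIM8 acts in target-directed miRNA degradation, in which a paired target leads to loss of the Argonaute and with it of the miRNA. The mir-35 family is essential in C. elegans embryos and declines at the end of embryogenesis. The question was which miRNAs differ between genotypes at all stages alike, and whether the difference grows with stage.

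Libraries held 170758 to 4059401 miRNA counts, with medians of 1607596.5 in ebax-1(null) and 1613442.5 in wild type, and the lowest was replicate 1 of starved L1 in ebax-1(null). Of 276 miRNA arms in the table, 198 had enough counts to be tested. Values are given as CPM, which are counts scaled to a common library total that TMM factors correct, and differences as log2 of ebax-1(null) over wild type. Replicates differed far beyond counting error, and the biological coefficient of variation was 1.12. The 2-8 cell libraries stood apart. Their spike-in counts were 0.578 to 1.51 of their miRNA counts, against 0.155 to 0.534 at the later stages. The summed level of 7 larval miRNAs was also above that of every later library, as given with the markers at the end. In the 2-8 cell embryos the median difference of the 124 arms whose mean log2 CPM reached 5 was 0.95 with TMM factors and -0.07 with RLE factors, an alternative way to set library sizes. At the 3 later stages these medians lay between -0.13 and 0.06 with TMM or RLE factors. Scaling by spike-in totals gave medians of 0.999 at 2-8 cell, 0.706 at comma, -0.143 at pretzel and 0.244 in starved L1. TMM factors set without the mir-35 family gave 0.381 at 2-8 cell and 0.314 at comma, so the comma stage also depended on the scaling. Since the 2-8 cell libraries stood apart, results are also given without that stage. Replicate 1 of every group has sample identifiers of one prefix and replicate 2 those of another, so values of replicate 1 and replicate 2 are also values within a prefix.

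With stage as a covariate, edgeR called 1 of 198 arms higher in ebax-1(null) at an adjusted p under 0.05, which is 0.505% of the arms. That arm was mir-253. The count called lower was 0, or 0%. At an unadjusted p under 0.05 there were 10 higher and 6 lower. DESeq2 called mir-44 and mir-45 higher and mir-85 lower, and limma voom called mir-253, mir-35, mir-44 and mir-45 higher and 0 lower. Counts of mir-44 and mir-45 were nearly the same in every library, so here and below they are 1 signal. Over all arms the median pooled difference was 0.26 and 122 of 198 arms were above 0. Under RLE factors that median was -0.00, so a pooled value near 0.26 stands at the middle of the arms under TMM.

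**Figure D1:**
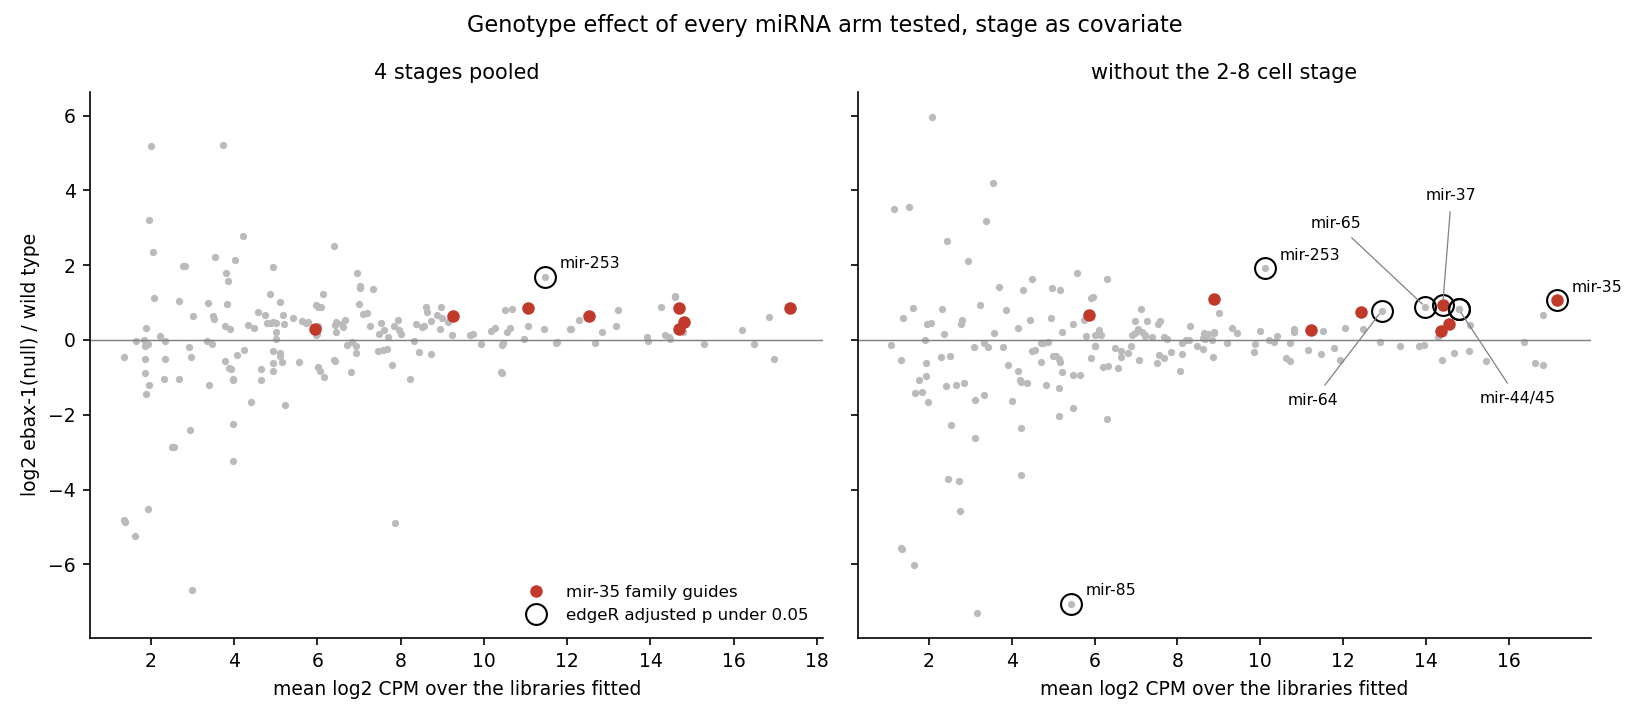
Genotype difference of each tested miRNA arm against its mean level. The y axis is log2 of ebax-1(null) over wild type with stage as a covariate, the x axis is mean log2 CPM, and each point is 1 arm; red points are the 8 mir-35 family guides and rings mark an edgeR adjusted p under 0.05. On the left, with 4 stages, 1 of 198 arms is ringed; on the right, without the 2-8 cell stage, 8 of 189 are ringed, 7 above 0 and 1 (mir-85) below.

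In 2-8 cell embryos mir-253 stood at 13958 and 6597 CPM in ebax-1(null), against 4092 and 6101 CPM in wild type. In comma embryos it stood at 2223 and 1491 CPM in ebax-1(null), against 721 and 724 CPM in wild type. In pretzel embryos mir-253 had 1199 and 1463 CPM in ebax-1(null), against 98.3 and 665 CPM in wild type. In starved L1 it had 2122 and 2953 CPM in ebax-1(null), against 544 and 294 CPM in wild type. With TMM factors both mutant libraries were above both wild-type libraries at each of the 4 stages. At 2-8 cell the difference of mir-253 was 1.01 with TMM factors but -0.49 with RLE factors, so its sign there is not settled. The pooled difference of mir-253 was 1.69 (SE 0.39, 95% interval 0.90 to 2.48, edgeR adjusted p = 0.0174), which is 3.23-fold. Exchanging genotype labels within each stage, in all 1296 ways, gave a 2-sided exact permutation p = 0.00154, the smallest that design allows. The absence of overlap at each of the 4 stages fixes this value, so it restates that pattern. It is not adjusted over arms. With TMM factors the mean difference over stages was 2.24 within replicate 1 and 1.40 within replicate 2, each above 0 at 4 of 4 stages. The lowest stage value within replicate 2 was 0.11. The call was lost under RLE factors (1.33, edgeR adjusted p = 0.483, exact permutation p = 0.017), in DESeq2 (1.33, adjusted p = 0.212) and with no filter on low counts (1.33, edgeR adjusted p = 0.0633). DESeq2 set its own size factors, of the RLE kind, so its loss is not separate from that under RLE factors. It held without the 2-8 cell stage (1.92, SE 0.41, edgeR adjusted p = 0.00989) and was lost without comma (1.58, adjusted p = 0.256), pretzel (1.21, adjusted p = 0.263) or starved L1 (0.93, adjusted p = 0.642). When 1 library at a time was left out and everything else refitted, mir-253 lay between 1.133 and 1.84 and passed in 5 of 16 fits, with edgeR adjusted p up to 0.284. With each of the 16 libraries in turn as the TMM reference, it lay between 1.26 and 1.75 and passed with 11, and the call was lost with 5 (adjusted p up to 0.214). In leave-outs with the arms and factors kept, added after the values were seen, it lay between 1.52 and 1.97 and passed in 11 of 16. The call was then lost without ebax-1(null) pretzel replicate 2 (0.0548), wild-type pretzel replicate 1 (0.0503), ebax-1(null) starved L1 replicate 2 (0.0682) and wild-type starved L1 replicate 1 (0.103) or 2 (0.156), with edgeR adjusted p in brackets.

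**Figure D2:**
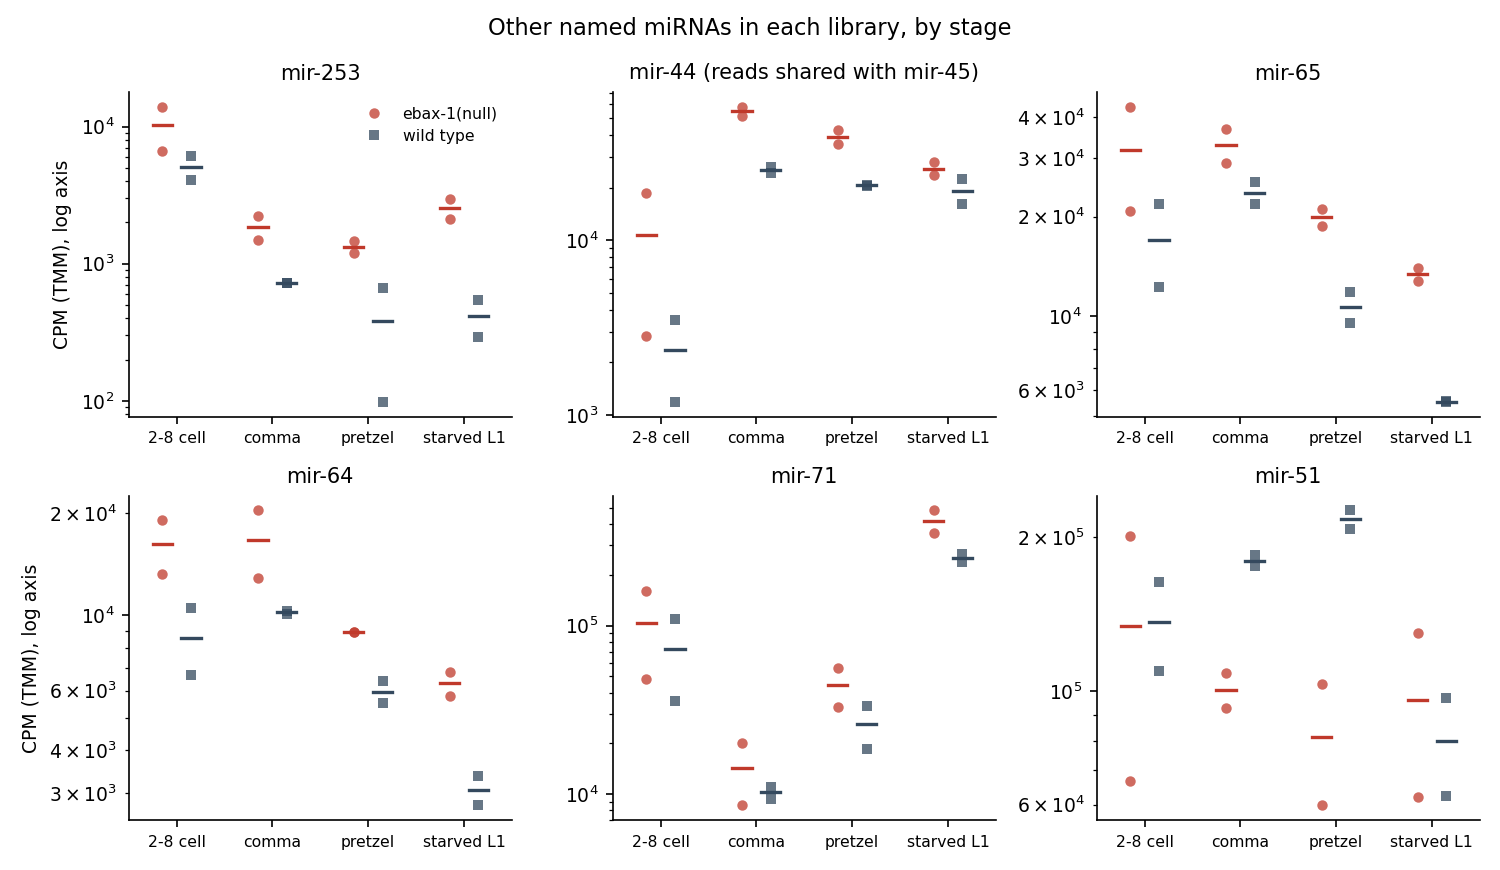
Levels of 6 miRNAs named in the text, in each library by stage. The y axis is TMM-scaled CPM on a log axis, the x axis the stage; red circles are ebax-1(null), dark squares wild type, 1 point a library, and bars are means of 2. For mir-253 and mir-64 the red points lie above the dark ones at all 4 stages, and for mir-51 they lie below at comma and pretzel.

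The mir-35 family has 8 guides, mir-35 to mir-42, whose genes lie on 1 chromosome in the WBcel235 annotation, with 7 of them adjacent among miRNA genes. No member passed in the pooled test. All 8 had a pooled value above 0, from 0.28 for mir-41 to 0.87 for mir-35, with a median of 0.65 beside 0.26 over all arms. Under RLE factors 7 of 8 were above 0 with a median of 0.37, beside -0.00 over all arms, and mir-40 was at -0.05.

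In 2-8 cell embryos mir-35 had 208395 and 200362 CPM in ebax-1(null), against 145034 and 189219 CPM in wild type. In comma embryos mir-35 had 427492 and 260292 CPM in ebax-1(null), against 401901 and 211768 CPM in wild type. In pretzel embryos mir-35 had 206238 and 113736 CPM in ebax-1(null), against 66665 and 76744 CPM in wild type. In starved L1 mir-35 had 60266 and 75920 CPM in ebax-1(null), against 24936 and 12168 CPM in wild type. With TMM factors the genotypes overlapped at comma and did not overlap at the other 3 stages. As a share of all miRNA counts, mir-35 at 2-8 cell was 16.18 and 30.75% in ebax-1(null), against 20.28 and 31.21% in wild type. By that measure the genotypes overlapped at 2-8 cell, and ebax-1(null) was lower in both replicates. The pooled difference of mir-35 was 0.87 (SE 0.32, 95% interval 0.23 to 1.51, edgeR adjusted p = 0.246). With TMM factors mir-35 was higher in 8 of 8 pairs of the same stage and number, which the unscaled share at 2-8 cell does not bear out. The exact permutation within stage (2-sided) gave p = 0.0123 with TMM factors, p = 0.0355 by library totals, p = 0.00154 by spike-in totals and p = 0.211 with RLE factors. The mean difference was 0.88 within replicate 1 and 0.90 within replicate 2. When a library was left out and everything else refitted, mir-35 passed without ebax-1(null) 2-8 cell replicate 1 (0.74, edgeR adjusted p = 0.0161) or replicate 2 (0.94, adjusted p = 0.0227), and it passed in no leave-out with arms and factors kept.

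Of the other guides, mir-37 was closest to mir-35. It had 30711 and 13821 CPM in ebax-1(null) pretzel embryos, against 10032 and 10228 CPM in wild type. In starved L1 it had 9084 and 8313 CPM in ebax-1(null), against 3714 and 2843 CPM in wild type. Its pooled value was 0.86 (SE 0.31, edgeR adjusted p = 0.246), and with TMM factors its genotypes overlapped at comma alone. The guide mir-36 was at 0.64 (SE 0.33, edgeR adjusted p = 0.605), with 3363 and 2849 CPM in ebax-1(null) starved L1, against 863 and 1803 CPM in wild type. With TMM factors it was higher in 8 of 8 same-numbered pairs, as were mir-35 and mir-37, and mir-39 (0.47, SE 0.30) was higher in 7 of 8.

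The remaining guides were higher in fewer same-numbered pairs, and none passed the joint test of stage dependence. The guide mir-38 was at 0.65 (SE 0.53), with the mutant means below wild type at 2-8 cell and above at the 3 later stages, where its genotypes did not overlap. The guide mir-40 was at 0.30 (SE 0.32) and was higher in 4 of 8 pairs. The least abundant guide was mir-41, at 0.28 (SE 1.02), with 11.8 and 51.6 CPM in ebax-1(null) starved L1, against 43.7 and 0 CPM in wild type. The pooled value of mir-42 was 0.85 (SE 0.44), and much of it lay in 1 library. In 2-8 cell embryos mir-42 had 2186 and 281 CPM in ebax-1(null), against 147 and 194 CPM in wild type.

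The share of all miRNA counts taken by the 8 guides uses no scaling factor. In starved L1 the family made up 9.47 and 8.595% in ebax-1(null), against 5.51 and 2.57% in wild type. In pretzel embryos it made up 30.02 and 19.1% in ebax-1(null), against 12.02 and 10.5% in wild type. The genotypes did not overlap at these later stages. They overlapped at comma (46.3 and 34.4% in ebax-1(null), 43.9 and 29.98% in wild type) and at 2-8 cell (26.9 and 51.1% in ebax-1(null), 32.7 and 47.6% in wild type). A larger share can come from more family RNA or from less of other miRNAs, and in whole animals more cells that hold the family and more of it per cell cannot be told apart.

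**Figure D3:**
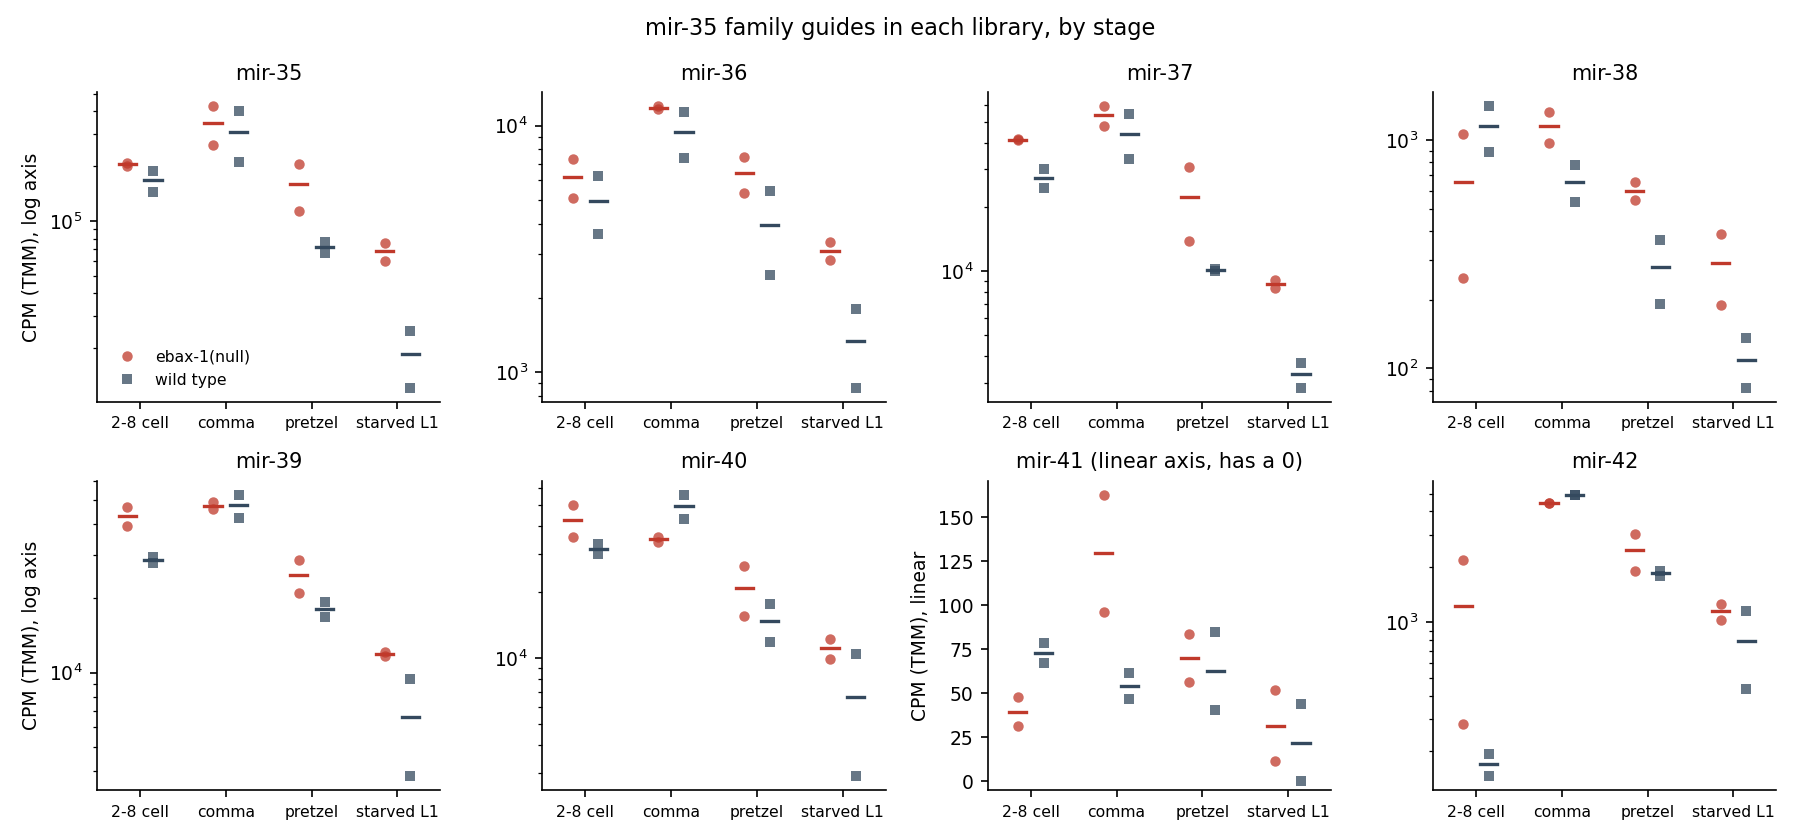
Levels of the 8 mir-35 family guides in each library by stage. The y axis is TMM-scaled CPM, on a log axis except for mir-41, which has a library at 0; red circles are ebax-1(null), dark squares wild type, 1 point a library, and bars are means of 2. In pretzel embryos 4 of 8 guides and in starved L1 5 of 8 have both red points above both dark ones.

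At the pretzel stage 4 of 8 guides had both ebax-1(null) libraries above both wild-type libraries, where 14.6% of all arms did. In starved L1 it was 5 of 8 guides, where 11.6% of all arms did, and no guide had both below at either stage. At 2-8 cell it was also 5 guides, with 1 below, where 23.2% of all arms were above and 3.03% below. At comma 3 guides were above and 2 below, where 17.2% of all arms were above and 9.09% below. Of all arms, 16.7% were below at pretzel and 12.6% in starved L1. Among the 7 tested passengers, 1 was above and 1 below at pretzel and 1 above and 0 below in starved L1. At 2-8 cell 2 passengers were above and 2 below, and at comma 0 were above and 2 below. These counts use TMM factors, and the difference between guides and passengers was not tested. Of 8 passengers 7 were tested and 3 were above 0, with a median of -0.11, and none passed. The passenger mir-41_5p*, the most abundant, was at -0.11 (SE 0.75), and mir-38_5p* was lowest at -4.52 (SE 2.05, edgeR adjusted p = 0.521).

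The second question was whether the difference grows with stage, tested as the change of the genotype difference for each step in stage order, numbered 0 to 3. For mir-35 the differences were 0.29 (SE 0.57) at 2-8 cell, 0.16 (SE 0.57) at comma, 1.16 (SE 0.58) at pretzel and 1.88 (SE 0.59) in starved L1. The mutant mean was 1.22, 1.12, 2.23 and 3.67 times the wild-type mean in the same order. The trend of mir-35 was 0.57 per stage (SE 0.26, unadjusted p = 0.0304, edgeR adjusted p = 0.5), which does not pass. Starved L1 held 19.8% of the comma level of mir-35 in ebax-1(null), against 6.05% in wild type. This share was higher in ebax-1(null) for 7 of the 8 guides, among them mir-37 with 16.2% in ebax-1(null) and 7.47% in wild type. The exception was mir-41, with 24.5% in ebax-1(null) and 40.4% in wild type, which has 1 wild-type library at 0. These percentages use TMM factors and were computed for the 8 guides and mir-253 alone. Without the same tally over all arms, they do not show whether the pattern is particular to the family. Starved L1 minus comma, a contrast added after the values were seen, was 1.71 for mir-35 (edgeR adjusted p = 0.582). The mir-35 trend passed in 5 of 16 refitted leave-outs, with values of 0.69 to 0.92, and in 0 of 16 with arms and factors kept. The 5 were those without replicate 1 of either genotype at 2-8 cell, either ebax-1(null) comma library, or ebax-1(null) pretzel replicate 2.

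The late and the early stages depended on the scaling to different degrees. Over 5 scalings the difference of mir-35 ranged from 1.55 to 2.24 in starved L1 and from 1.11 to 1.31 at pretzel. At comma it ranged from 0.08 with RLE factors to 0.865 with spike-in totals, where pretzel was at 1.11. At 2-8 cell it ranged from -0.92 with RLE factors to 0.46 with spike-in totals, so its sign there is not settled. The trend of mir-35 was 0.56 to 0.95 per stage over these scalings. Of the 8 guides 7 had a trend above 0 under each of the 5 scalings, and none passed. With TMM factors the exception was mir-42, at -0.64 (SE 0.37) with TMM factors, which was at 0.34 without the 2-8 cell stage. In that fit mir-41 was at -0.34, so 7 of 8 were again above 0. With TMM factors the median trend was 0.32 for the family and -0.44 for all arms, of which 68 of 198 were above 0. With RLE factors these medians were 0.66 and -0.13.

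**Figure D4:**
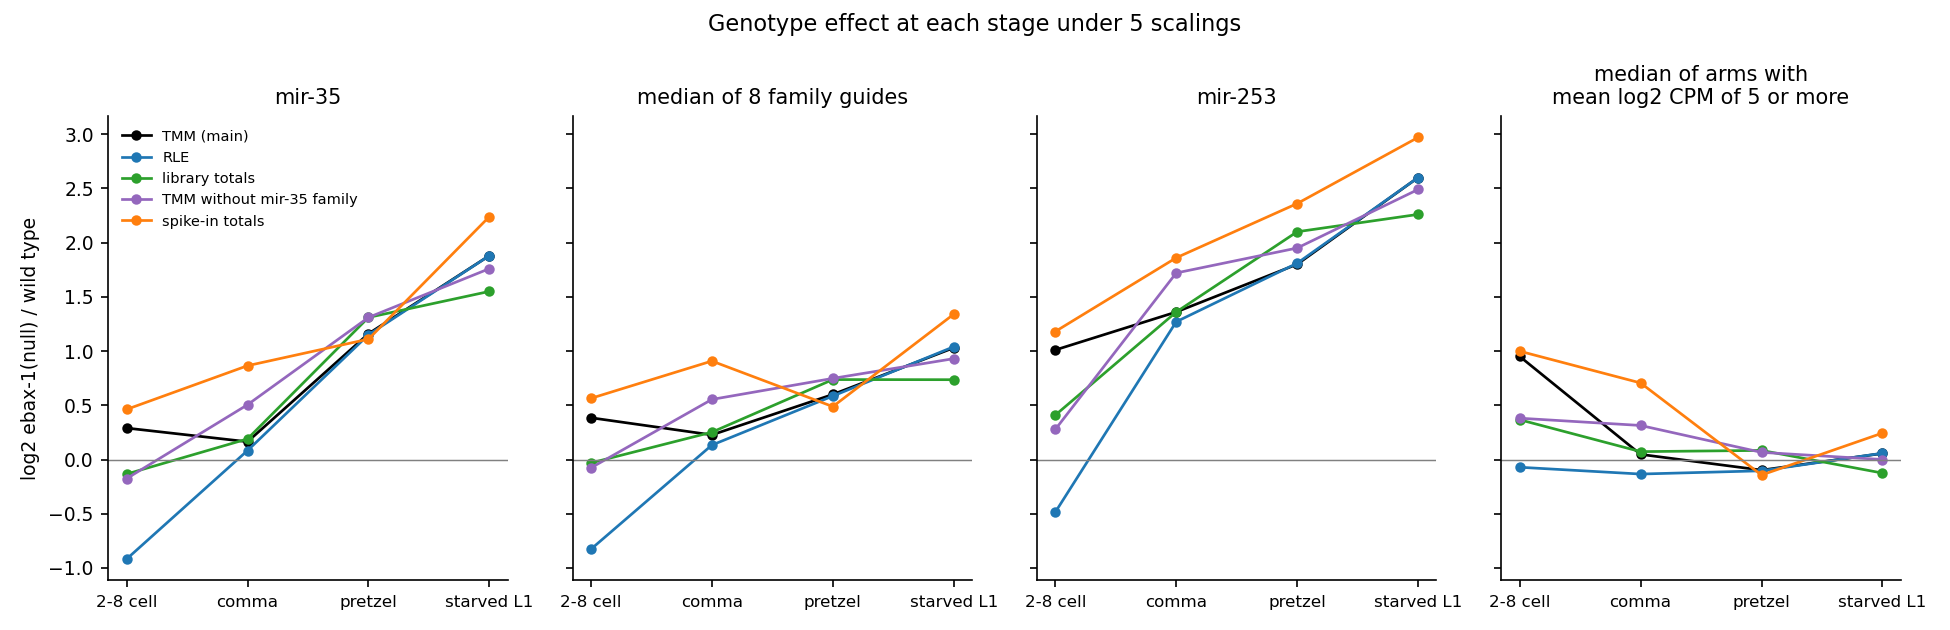
Genotype difference at each stage under 5 ways of scaling. The y axis is log2 of ebax-1(null) over wild type and each line is 1 scaling; panels show mir-35, the median of the 8 family guides, mir-253 and the median of the 124 arms whose mean log2 CPM reached 5. Lines spread most at 2-8 cell, where mir-35 runs from -0.92 to 0.46, and least at pretzel, from 1.11 to 1.31.

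For mir-253 the stage differences with TMM factors were 1.01 (SE 0.77), 1.36 (SE 0.78), 1.80 (SE 0.79) and 2.60 (SE 0.81) in stage order. Its trend was 0.52 (SE 0.33, edgeR adjusted p = 0.544). Levels of mir-253 in starved L1 were 137% of comma in ebax-1(null), against 58.0% in wild type. Across all arms edgeR called 0 trends, with 2 rising and 15 falling at an unadjusted p under 0.05, and the percent called was 0 in both directions. DESeq2 called 1 rising and 2 falling and limma voom 0. The joint test of any stage dependence called 0 arms (13 unadjusted, 2 by DESeq2, 0 by limma voom). At single stages edgeR called 0 arms higher and 0 lower at each of the 4. Unadjusted, 22 were higher and 1 lower at 2-8 cell, 4 and 2 at comma, 1 and 3 at pretzel, and 11 and 11 in starved L1. DESeq2 called 5 higher and 2 lower at 2-8 cell and 7 higher and 6 lower in starved L1, and 0 at comma and pretzel. The 7 in starved L1 included mir-253 (2.60, DESeq2 adjusted p = 0.0287) and mir-65 (1.29, adjusted p = 0.0264). The others were mir-237 (19.8), mir-4813_5p (8.38), mir-40_5p* (8.34), mir-4808 (8.26) and mir-250 (8.25). Of these mir-237, mir-40_5p*, mir-4808 and mir-250 were at 0 in both wild-type starved L1 libraries, so their sizes depend on the fit. Limma voom called 0 at each stage.

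The 5 rising and 5 falling trends of lowest unadjusted p were followed. Besides mir-35, the rising ones were mir-245, mir-40_5p*, mir-4808 and mir-250. In starved L1 mir-250 had 0 and 62.5 CPM in ebax-1(null) and 0 in both wild-type libraries, and mir-40_5p* had 70.9 and 0 CPM against 0 in both wild-type libraries. These trends rest on libraries at 0, and their size depends on the fit. The trend of mir-245 (1.55, SE 0.77, edgeR adjusted p = 0.5) came from the 2-8 cell stage, with 1.12 and 0 CPM in ebax-1(null), against 22.4 and 119 CPM in wild type. The falling ones were mir-85, mir-2, mir-1_5p*, mir-232_5p* and mir-1822_5p*. For mir-2 the value was -2.08 (SE 0.87), with 25.7 and 27.9 CPM in ebax-1(null) 2-8 cell embryos and 0 in both wild-type libraries. None of the 10 passed in edgeR.

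Leaving out the 2-8 cell libraries was 1 of 4 fits that each left out a stage. It called 7 of 189 arms higher (3.7%) and 1 lower (0.529%), with 12 and 8 at an unadjusted p under 0.05. The other 3 of these fits called 0 arms higher. With RLE factors and without 2-8 cell, 4 were higher and 2 lower. The 7 were mir-253, mir-35 (1.07, SE 0.29, edgeR adjusted p = 0.041), mir-37 (0.95, SE 0.24, adjusted p = 0.0282), mir-44, mir-45, mir-64 and mir-65. All 8 family guides were above 0, with a median of 0.71 beside -0.07 over the 189 arms, of which 86 were above 0. The pooled test of 4 stages remains the result, and of these arms it called mir-253 alone. Other settings that kept the 4 stages called some of the rest. With a replicate term within each stage these were mir-37, mir-44, mir-45, mir-64 and mir-65. Limma voom called mir-35, mir-44 and mir-45, and DESeq2 called mir-44, mir-45 and mir-85. TMM factors set without the family called mir-44, mir-45 and mir-65.

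Outside the family, 4 abundant guides stood higher in all 8 same-numbered pairs with TMM factors, a pattern noticed after the values were seen. They were mir-44, mir-45, mir-64 and mir-65, and with mir-253, mir-35, mir-36 and mir-37 they make 8 arms of 198, with 0 lower in all pairs. At 2-8 cell the median difference of abundant arms was 0.95 with TMM factors and -0.07 with RLE factors, so this tally depends on the scaling there. The mir-44 family promotes sperm fate in the hermaphrodite germline. In comma embryos mir-44 had 51826 and 58204 CPM in ebax-1(null), against 24134 and 26164 CPM in wild type. In pretzel embryos mir-44 had 43083 and 35496 CPM in ebax-1(null), against 20707 and 20490 CPM in wild type. In starved L1 it had 27932 and 23615 CPM in ebax-1(null), against 16215 and 22322 CPM in wild type. The pooled value of mir-44 was 1.16 (SE 0.35, edgeR adjusted p = 0.144), without overlap at the 3 later stages. It was 1.34 within replicate 1 and 0.82 within replicate 2. At 2-8 cell 1 library set much of it, with 18617 and 2826 CPM in ebax-1(null), against 3491 and 1185 CPM in wild type. Counts of mir-44 and mir-45 were nearly the same in every library (ratio 0.962 to 1.05, correlation of log2 CPM 0.9998). Their reads may be shared, and the values of each are uncertain. Wherever both are counted as arms, they stand for 1 signal. When a library was left out and the rest refitted, mir-44 passed without ebax-1(null) 2-8 cell replicate 2 (1.26, edgeR adjusted p = 0.00509) or ebax-1(null) pretzel replicate 1 (1.16, adjusted p = 0.0498). With a replicate term within each stage mir-44 passed, at 1.07 (edgeR adjusted p = 0.0104). The third family member tested, mir-61, was at -0.08 (SE 0.31).

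In starved L1 mir-65 had 13978 and 12829 CPM in ebax-1(null), against 5525 and 5541 CPM in wild type. In pretzel embryos it had 21136 and 18734 CPM in ebax-1(null), against 9530 and 11849 CPM in wild type. The genotypes did not overlap at the 3 later stages, and the pooled value of mir-65 was 0.89 (SE 0.30, edgeR adjusted p = 0.217). Its neighbour mir-64 had 6826 and 5806 CPM in ebax-1(null) starved L1, against 2757 and 3376 CPM in wild type. With TMM factors mir-64 did not overlap at any of the 4 stages (pooled 0.81, SE 0.30, edgeR adjusted p = 0.246). Within replicate 1 and within replicate 2 mir-65 was at 0.91 and 0.85, and mir-64 at 0.74 and 0.87. The genes mir-229, mir-64, mir-65 and mir-66 are a run of 4 adjacent miRNA genes in the annotation. From that run mir-66 was at 0.29 (SE 0.33) and mir-229 at -0.28 (SE 0.85), and mir-63, which lies on another chromosome, was at 0.15 (SE 0.51). Of the 5 members 0 passed in the pooled test. With a replicate term within each stage mir-65 (edgeR adjusted p = 0.0236) and mir-64 (adjusted p = 0.046) passed.

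Earlier work had tied 6 miRNAs to EBAX-1, all higher in mutants there. Of these mir-253 was the only one called here. The guide mir-243, which is loaded into the Argonaute RDE-1, was at 0.37 (SE 0.61, edgeR adjusted p = 0.983), with overlap at each stage and a sign that changed under RLE factors (-0.08). Counts of mir-43 were 105 in 1 comma library and 15 and 2 in the pretzel libraries of ebax-1(null), and 0 in all 8 wild-type libraries. Its unadjusted p was 0.0268 and its edgeR adjusted p = 0.483. The guide mir-788 stood at 119 and 50.1 CPM in ebax-1(null) pretzel embryos, against 215 and 59.3 CPM in wild type, and it was at 0 in both genotypes in starved L1. The pair mir-247 and mir-797 had too few counts to test, with 38 in all 16 libraries for mir-247, 33 of them in 1 wild-type starved L1 library, and 37 for mir-797, all in 1 ebax-1(null) comma library.

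No arm passed as lower in the pooled test. Among arms with a mean log2 CPM over 5 the lowest unadjusted p was that of mir-85, at -4.91 (SE 1.77, unadjusted p = 0.0124, edgeR adjusted p = 0.246). It had 1353 and 591 CPM in ebax-1(null) 2-8 cell embryos, against 991 and 248.5 CPM in wild type. Its counts in ebax-1(null) were 0 and 0 at comma, 1 and 0 at pretzel and 0 and 1 in starved L1, against 0 and 31, 14 and 22, and 1 and 825 in wild type. Most of its later counts were thus in 1 wild-type library, starved L1 replicate 2, without which its value was -3.01 (edgeR adjusted p = 0.457). It passed in 14 of 16 refitted leave-outs, with values of -6.09 to -4.26, and not without that library or wild-type comma replicate 2.

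The mir-51 family is needed in embryos, where it acts in pharynx attachment. In pretzel embryos mir-51 had 103252 and 59806 CPM in ebax-1(null), against 225714 and 207875 CPM in wild type. In comma embryos it had 108466 and 92774 CPM in ebax-1(null), against 184268 and 175629 CPM in wild type. The genotypes did not overlap at these stages and overlapped at the other two. The pooled value of mir-51 was -0.50 (SE 0.32, edgeR adjusted p = 0.884). It passed at -1.23 without starved L1 (edgeR adjusted p = 0.0216), at -0.88 with no filter (adjusted p = 0.0255) and in 6 of 16 refitted leave-outs (-1.09 to -0.85). The 6 left out replicate 1 of either genotype at 2-8 cell, wild-type pretzel replicate 2, ebax-1(null) starved L1 replicate 2 or either wild-type starved L1 library. Of the 6 family members 1 was above 0, with a median of -0.11, and 0 passed.

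Among the other arms followed as lower were mir-790 (-0.89, SE 0.46, edgeR adjusted p = 0.605), mir-245 (-1.06, SE 0.84) and mir-791_5p* (-1.75, SE 1.57). The level of mir-790 in starved L1 was 1897 and 2401 CPM in ebax-1(null), against 3597 and 4047 CPM in wild type. The passenger mir-791_5p* was at 0 in both ebax-1(null) starved L1 libraries, against 138 and 149 CPM in wild type. The rest were mir-77_5p* (-0.84), mir-234 (-0.68), mir-254 (-0.84), mir-74 (-0.98) and mir-248 (-0.38), each smaller in size than its SE.

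Stage and tissue markers were read beside these results. The guide mir-71, on which larvae depend to survive starvation, had 354114 and 484342 CPM in ebax-1(null) starved L1, against 267852 and 237592 CPM in wild type. In pretzel embryos mir-71 had 32749 and 55888 CPM in ebax-1(null), against 18517 and 33333 CPM in wild type. Its pooled value was 0.63 (SE 0.32, edgeR adjusted p = 0.605), and its genotypes overlapped at the 3 embryo stages. The heterochronic miRNAs, which time larval development, were summed over the 7 tested of let-7, its relatives and lin-4. At comma this sum was 1283 to 2436 CPM in ebax-1(null), against 965 to 1406 CPM in wild type. At pretzel it was 681 to 838 CPM in ebax-1(null), against 245 to 751 CPM in wild type. In starved L1 it was 1056 and 1070 CPM in ebax-1(null), against 542 to 1291 CPM in wild type. At 2-8 cell it was 14360 to 47860 CPM in ebax-1(null), against 5106 to 26940 CPM in wild type, which is above every later library. Levels of mir-71 likewise were 160200 and 48147 CPM in ebax-1(null) and 109951 and 35783 CPM in wild type at 2-8 cell, above all comma libraries (8533 to 19966 CPM). Of these 7, all were above 0 in the pooled test (median 0.79) and 0 passed. The highest was lin-4, the founding member of the class, at 2.53 (SE 1.19, edgeR adjusted p = 0.569), with 734 and 261 CPM in ebax-1(null) 2-8 cell embryos, against 232 and 77.6 CPM in wild type. Whether a shift in developmental age between the genotypes plays a part in the differences above was not tested.

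Tissue markers did not pass. The muscle miRNA mir-1 was at 0.47 (SE 0.33, edgeR adjusted p = 0.953) and the neuronal miRNAs mir-124 and lsy-6 were at -0.18 (SE 2.12) and 0.42 (SE 1.34). Both neuronal miRNAs were at 0 in all 4 libraries of 2-8 cell embryos. In the mir-58 family, the worm relatives of bantam, 3 of 5 tested members were above 0 with a median of 0.07 and 0 passed. In the mir-2 family, which includes mir-43, 3 of 3 tested were above 0, with mir-2 at 1.40 (SE 1.03) and mir-250 at 1.02 (SE 1.35), and 0 passed.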

How the data were processed

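Small RNA was sequenced from whole animals with spike-in RNAs added. The authors deposited 1 table of estimated counts per miRNA arm, unscaled, and 14 of the values used here end in 0.5, so values were rounded. The submitters' processing notes name HTSeq 0.13.5, Bowtie2 2.4.4, DESeq2, SAMtools 1.13 and cutadapt 3.4, with no genome build. Of 296 table lines, 10 spike-in and 10 edited mir-35 lines were left out. The labels do not say that replicates are separate cultures, so p-values measure the spread between these samples. Chi-square per degree of freedom between replicates was 92.3 to 925, so no pair was the same library.

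Under R 4.3.3, arms were tested by robust quasi-likelihood in edgeR 4.0.16 with TMM factors, filterByExpr (minimum count 10, total 15), stage as a covariate and Benjamini-Hochberg adjustment over all arms, threshold 0.05. The steps were tested on simulated data with a spread chosen so that the answers could be recovered. That spread is smaller than the spread of these data, so the simulation does not show how often differences are missed here. DESeq2 1.42.0 and limma 3.58.1 (voom with quality weights) were alternatives. DESeq2 used its own size factors, of the RLE kind, in place of TMM factors, so it changed the scaling as well as the test. Figures used matplotlib 3.10.9. Named arms were the 8 family guides, 6 miRNAs tied to EBAX-1, and the 10 higher and 10 lower pooled arms and 5 rising and 5 falling trends of lowest p whose mean log2 CPM reached 5; mir-253's trend, the no-overlap counts and the arms called without a stage were followed after values were seen. Members and lists were chosen with earlier results of these data known. Guides are named by gene, passengers by an asterisk as in the table. No molecular identifiers were used, so depth limits cover counting error only.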

Additional observations from a re-analysis of the deposited data

Results flagged for a closer look

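At some stages both ebax-1(null) libraries were above, and at others both were below, both wild-type libraries for 6 of 35 named arms, and for 24 of 198 arms tested. The joint test of stage dependence passed for none of them, so the difference between stages is not shown. Values are log2 of ebax-1(null) over wild type at 1 stage. Of the mir-35 family, mir-40 was at 0.44 at 2-8 cell and -0.51 at comma. The guide mir-41 was at -0.88 at 2-8 cell and 1.26 at comma. For mir-42 the values were 2.85 at 2-8 cell and -0.15 at comma. Outside the family, mir-77_5p* was at 1.29 at 2-8 cell and -2.96 at pretzel, with 7619 and 3465 counts in ebax-1(null) 2-8 cell embryos, against 2430 and 1368 in wild type. Fitted values against libraries at 0 depend on the fit and are no bounds. Such values were those of mir-4808, at -1.72 at comma and 8.72 in starved L1, where both wild-type libraries were at 0 and ebax-1(null) had 1 and 108 counts. The passenger mir-1_5p* was at 9.94 at 2-8 cell, where ebax-1(null) had 114 and 14 counts and both wild-type libraries 0, at 0.54 at pretzel and at -3.70 in starved L1.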

How the results depend on the processing

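Effects are pooled unless called trends. With RLE factors 0 arms were called higher, mir-253 stood at 1.33, mir-40 at -0.051 and mir-243 at -0.079, and the permuted difference of mir-35 was 0.601. With no filter 0 were higher and 2 lower, with mir-253 at 1.33, mir-40 at -0.015 and mir-243 at -0.047, and 1 arm was lower at 2-8 cell and 1 higher and 1 lower in starved L1. DESeq2 called 2 higher and 1 lower, with mir-253 at 1.33, mir-40 at -0.052, mir-243 at -0.075 and mir-788 at 0.30. It also called 1 rising trend (mir-800, named after its values were seen), 2 falling (mir-1_5p* and mir-232_5p*) and 2 arms with any stage dependence. By stage it called 5 higher and 2 lower at 2-8 cell and 7 higher and 6 lower in starved L1. Limma voom called 4 higher, with mir-35 at 0.85, mir-788 at 0.35, mir-77_5p* at 0.27, mir-74 at 0.51 and the mir-42 trend at 0.078. TMM factors without the family called 4 higher, and a minimum of 50 counts called 3.

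Without 2-8 cell 7 were higher and 1 lower, with mir-35 at 1.07 and mir-788 at 1.35 and trends of mir-41 at -0.34, mir-42 at 0.34 and mir-245 at -0.20. With RLE factors as well, added after seeing the data like the contrasts of late with early stages and the joining of mir-44 and mir-45, 4 were higher and 2 lower, with mir-243 at -0.030, mir-788 at 1.304 and the same trends at -0.15, 0.49 and -0.094. Without comma 0 were higher, with mir-41 at -0.21 and mir-253 at 1.58. Without pretzel 0 were higher, with mir-40 at -0.15 and mir-253 at 1.21. Without starved L1 0 were higher and 1 lower, with mir-40 at -0.25, mir-41 at -0.15, mir-243 at -0.23, mir-253 at 0.93 and trends of mir-40_5p* at -0.0062 and mir-250 at -0.22. The average of stage effects called 1 lower. Starved L1 minus comma gave mir-41 -0.68, mir-42 0.68 and mir-245 -0.40.

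Leaving out 1 library each, refitted, gave 0 to 4 arms higher and 0 to 3 lower. In these 16 fits mir-253 ran from 1.133 to 1.84 and passed in 5, mir-35 from 0.36 to 0.94 and passed in 2, and the mir-35 trend from 0.54 to 0.92 and passed in 5. Other ranges were -0.36 to 0.49 for mir-243, -0.20 to 0.33 for mir-40, -0.29 to 0.38 for mir-41, -1.29 to 1.05 for mir-788, and, as trends, -0.20 to 2.48 for mir-250 and -0.78 to 0.11 for mir-42. Trends called were 0 to 1 rising and 0 to 1 falling, and 0 to 7 arms had any stage dependence. At 2-8 cell 0 to 19 arms were higher and 0 to 2 lower, at comma 0 to 3 were lower, at pretzel 0 to 1 were lower, and in starved L1 0 to 6 were higher and 0 to 1 lower. These fits also changed 2 settings. In 14 of 16 edgeR chose another library as the TMM reference, and the arms kept numbered 206 to 216 in place of 198. With arms and factors kept, an alternative added after seeing the data, mir-253 ran from 1.52 to 1.97 and passed in 11 of 16, mir-35 from 0.69 to 1.03, and the mir-35 trend from 0.445 to 0.71, neither passing in any; 0 to 1 arms were higher and 0 lower.

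With each library in turn as TMM reference, also added, mir-253 ran from 1.26 to 1.75 and passed with 11 of 16. It did not pass at 1.42, 1.33, 1.26, 1.26 and 1.42. With these references 0, 1 or 3 arms were higher and 0 lower. The values of mir-35 ran from 0.51 to 0.94, with no pass, and its trend from 0.55 to 0.87, passing at 0.87 with 1 reference. The median of all arms ran from -0.13 to 0.34.

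Same-numbered libraries of the genotypes correlated at 0.124, 0.231, -0.0636 and 0.0523 in stage order, so the numbers were not used as pairs in the main test. Counts of same-numbered pairs are therefore descriptive. They coincide with the prefix of the sample identifiers, whose meaning the labels do not give. The replicate block over numbers, which is also a term for the prefix, called 1 higher (mir-253, edgeR adjusted p = 0.0291) and 0 lower, left mir-44, mir-45 and mir-65 at 0.233, and put mir-788 at 0.025. The replicate block within stage called 6 higher, which were mir-253 (edgeR adjusted p = 0.003), mir-44 and mir-45 (0.0104), mir-65 (0.0236), and mir-64 and mir-37 (0.046). Depth was lowest in replicate 1 of starved L1 in ebax-1(null), and 2 libraries per group limit every value at a single stage.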
